A study of Equus caballus with 45 samples.

Results

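The 39 genes described here make, import, store, export and desaturate lipid in equine cells. They were taken by symbol from the RNA-seq count tables of 20881 protein-coding genes, and every one was found. By role, 8 lead from acetyl units through mevalonate to squalene, 10 turn squalene into cholesterol, 5 control the SREBP pathway, 5 move or store sterol, 5 belong to LXR signalling and cholesterol efflux, and 6 make or desaturate fatty acids. Cells hold cholesterol steady with a pair of opposed programmes. When membrane sterol is low, SCAP carries the SREBP transcription factors out of the endoplasmic reticulum, where INSIG proteins otherwise hold it, and the factors switch on synthesis, uptake and fatty acid genes. When sterol is plentiful, oxysterols and other sterol intermediates activate LXR, which switches on the efflux pumps ABCA1 and ABCG1, the apolipoprotein APOE and MYLIP, a ligase that removes lipoprotein receptors from the surface. Macrophages, which take up lipid from dying cells, are known for strong efflux.

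The samples were 45 bulk libraries from horse cells. Bone marrow mesenchymal stromal cells (MSCs) of 3 horses, called PC, 99 and 92, were left untreated or treated with the TLR3 agonist poly I:C, the STING agonist 2′3′-cGAMP or CpG, with 1 library per horse and treatment. The labels give 10 ng/mL of poly I:C or cGAMP for 2 h, whereas the published methods give 10 µg/mL, and they name no dose for CpG. Synoviocytes, chondrocytes and monocyte-derived macrophages, each from 1 horse, received IL-1β and TNF-α together with MSC-conditioned medium (MSC-CM) for 24 h and were then kept for a further 24 h in fresh medium. The medium came from resting MSCs, from poly I:C-treated MSCs (TLR-MSC-CM) or from cGAMP-treated MSCs (STING-MSC-CM) of the donors AG1, ORC and PC, so each condition had 3 libraries per cell type. Only PC is also a name among the sequenced MSCs, although the paper counts 3 marrow donors in total. The MSC values of 99 and 92 therefore cannot be matched by name to the AG1 and ORC media. Each cell type also had 1 library with the cytokines only and 1 with no addition, which allow no test. The conditions of these single libraries and of the resting MSC-CM libraries were read from the sample descriptions. The single libraries carry a donor name in their cell line tag, although by their descriptions no MSC-CM was added. The macrophage labels give 10 ng/mL of each cytokine, a dose that differs from that in the methods. The synoviocyte labels give the dose of the methods, and the chondrocyte labels give no cytokine dose. The paper's abstract has the cells in cytokines for 2 h and washed before the medium, whereas its methods describe no such separate step. All joint cells were grown with fetal bovine serum, a source of cholesterol, and the macrophages had been matured with M-CSF. The replicates within a joint cell type differed in the MSC donor of the medium and not in the horse of the responding cells. The p-values of the joint cells therefore measure the spread between media on 1 horse's cells, whereas those of the MSCs rest on 3 horses.

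Library totals ran from 23525704 to 54103873 counts with a median of 31660884, and all 39 genes were tested in every comparison. Levels are CPM, counts scaled to the size and composition of each library, and are compared between libraries for 1 gene and not between genes, because no gene lengths were used. All 14 macrophage markers were over 1 CPM in every macrophage library, with summed levels of 8662 to 13236 CPM against at most 38.7 CPM in the synoviocytes and chondrocytes. All 8 lymphocyte markers were over 1 CPM in every macrophage library too. Their sums were 260 to 457 CPM against at most 1.65 CPM in the synoviocytes and chondrocytes. Only 6 of 14 cartilage markers were over 1 CPM in every chondrocyte library. COL2A1, COL9A1, COL9A3, COL11A2, MATN1, MATN3, HAPLN1 and CILP were not among those 6, while all 11 fibroblast markers were over 1 CPM in synoviocytes, chondrocytes and MSCs alike. The name chondrocyte is therefore kept as a label of origin. Some libraries stood apart. The macrophage library with TLR-MSC-CM of donor AG1 had the lowest macrophage marker sum of the 11, 8662 CPM against 10060 to 13236 CPM, and the highest lymphocyte marker sum, 457 CPM against 260 to 327 CPM. The 3 chondrocyte libraries with media of donor ORC differed from the other conditioned-medium libraries across much of the table, as given further on. In bulk RNA, fewer cells of a type and less RNA per cell cannot be told apart.

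In macrophages, most sterol synthesis genes were at higher mean levels with STING-MSC-CM than with resting MSC-CM, while the 5 efflux genes were mixed, with log2 fold changes from −1.17 for APOE to 0.50 for ABCA1. No single gene passed the test in the unblocked edgeR quasi-likelihood fit after Benjamini-Hochberg adjustment over 15052 genes (adjusted p under 0.05), either among the 39 or in the whole table. At an unadjusted p under 0.05, 8 of the 39 were higher and 1 was lower, beside 4.6% of all genes tested, 2.23% higher and 2.38% lower. DESeq2 called 1 of the 39 after adjustment, beside 0.0332% of all genes. Media of 1 donor gave macrophage libraries that deviated together, and with the donor as a block edgeR called 2 of the 39, LIPG and LSS, beside 0.658% of all genes, with 16 higher and 4 lower at an unadjusted p under 0.05 beside 13.3%.

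LIPG, endothelial lipase, which cuts phospholipids of high-density lipoproteins at the cell surface, had the smallest p. Its level in macrophages was 60.7, 87.3 and 80.8 CPM with resting MSC-CM of donors AG1, ORC and PC, 79.9, 80.4 and 84.4 CPM with TLR-MSC-CM, and 110, 147 and 149 CPM with STING-MSC-CM. Every STING-MSC-CM library was above every resting and TLR-MSC-CM library. The cytokine library held 116 CPM and the library with no addition 114 CPM, so the resting and TLR-MSC-CM libraries lay below both single libraries. For STING- against resting MSC-CM the log2 fold change of LIPG was 0.83 (SE 0.15, unadjusted p = 0.000141, edgeR adjusted p = 0.717). The adjusted p was 0.00234 with the donor block and 0.00293 in DESeq2. Against TLR-MSC-CM the log2 fold change was 0.73 (SE 0.14, unadjusted p = 0.000388, donor block adjusted p = 0.00332, DESeq2 adjusted p = 0.0124).

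LSS, lanosterol synthase, closes squalene epoxide into the first sterol of the pathway. It stood at 18.7, 18 and 26.6 CPM with resting MSC-CM of AG1, ORC and PC, at 20.3, 20.5 and 25.9 CPM with TLR-MSC-CM, and at 25, 31.3 and 39.9 CPM with STING-MSC-CM. It was higher with STING-MSC-CM for each of the 3 donors, but the groups overlapped, because the PC resting library was above the AG1 STING-MSC-CM library. The log2 fold change was 0.60 (SE 0.19, unadjusted p = 0.00823, edgeR adjusted p = 0.917), and with the donor block the adjusted p was 0.00975.

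Further members of the synthesis chain differed less in size but did not overlap between the groups. ACAT2, the thiolase that joins the first acetyl units, was at 48.8, 54.3 and 53.9 CPM with resting MSC-CM and at 61.6, 61.6 and 69.1 CPM with STING-MSC-CM. IDI1, the isomerase of the isoprene units, was at 57, 52.4 and 63.3 CPM against 67.5, 69.1 and 72.5 CPM. FDFT1, squalene synthase, was at 61.3, 53.6 and 64.8 CPM against 74.9, 68.4 and 82.4 CPM. For all 3 genes the lowest STING-MSC-CM library was above the highest resting library. MSMO1, a sterol methyl oxidase, did not overlap either, at 130, 108 and 129 CPM against 158, 135 and 160 CPM. SC5D, a late sterol desaturase, was at 128, 122 and 131 CPM against 136, 149 and 158 CPM. Their log2 fold changes ran from 0.22 for SC5D to 0.33 for FDFT1, with unadjusted p from 0.00516 for ACAT2 to 0.0237 for SC5D. HMGCS1, which makes the first committed mevalonate precursor, was at 41.7, 41.8 and 48 CPM against 52.6, 47.5 and 55.9 CPM, a log2 fold change of 0.25 (SE 0.10, unadjusted p = 0.0279), and its groups overlapped by 1 library. SQLE, the epoxidase that follows squalene, was at 41.7, 33.6 and 34.8 CPM against 45.2, 38.1 and 41.6 CPM and had an unadjusted p of 0.192. In the cytokine library and the library with no addition ACAT2 was at 70.9 and 68.4 CPM and MSMO1 at 160 and 151 CPM. FDFT1 was at 77.1 and 68.2 CPM, SC5D at 139 and 135 CPM and SQLE at 43.7 and 41.8 CPM in the same order. IDI1 was at 63 and 62.1 CPM, HMGCS1 at 50.4 and 42.7 CPM and LSS at 27.9 and 23.1 CPM. Both single libraries lay above every resting library for ACAT2, MSMO1, FDFT1, SC5D and SQLE, but not for IDI1, HMGCS1 or LSS.

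**Figure D1:**
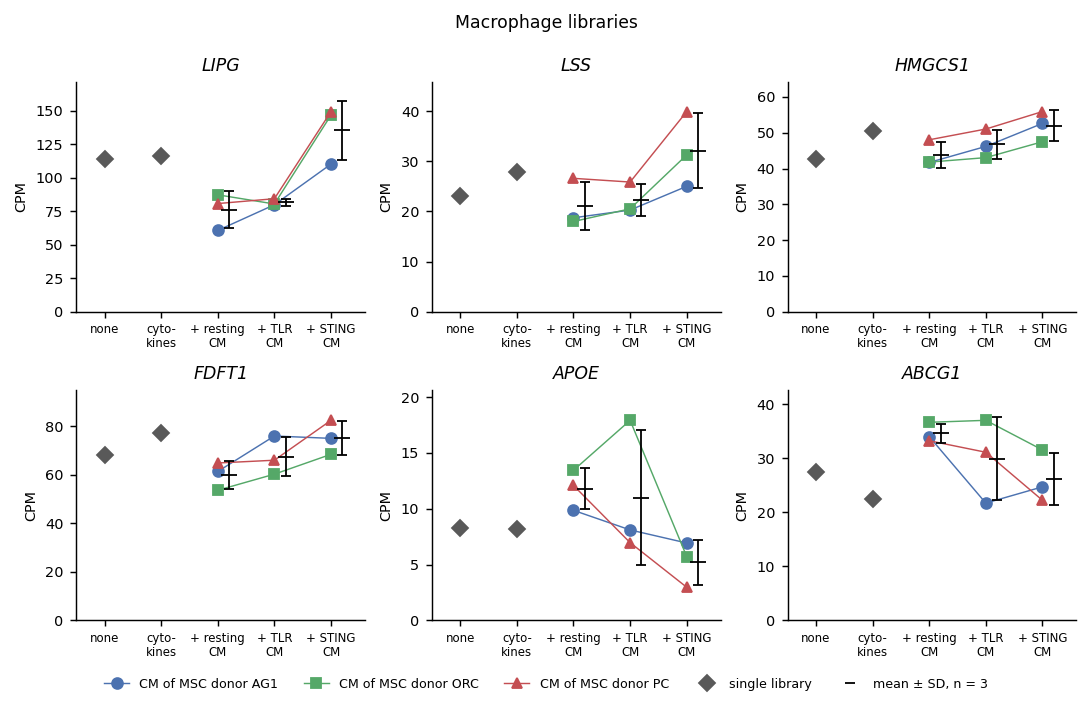
CPM of LIPG, LSS, HMGCS1, FDFT1, APOE and ABCG1 in the 11 macrophage libraries, with lines joining the libraries of 1 medium donor, diamonds for the single libraries with no addition and cytokines only, and bars for mean ± SD of 3 libraries. LIPG lies between 110 and 149 CPM with STING-MSC-CM and at most at 87.3 CPM with resting or TLR-MSC-CM, and APOE lies between 2.97 and 6.94 CPM with STING-MSC-CM against 9.86 to 13.4 CPM with resting MSC-CM.

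The efflux genes did not move as 1 group. APOE, which carries cholesterol out of macrophages on lipoproteins, was at 9.86, 13.4 and 12.1 CPM with resting MSC-CM of AG1, ORC and PC, at 8.11, 17.9 and 6.97 CPM with TLR-MSC-CM, and at 6.94, 5.72 and 2.97 CPM with STING-MSC-CM. All 3 STING-MSC-CM libraries lay below all 3 resting libraries, and they also lay below the cytokine library, 8.22 CPM, and the library with no addition, 8.28 CPM. The log2 fold change against resting MSC-CM was −1.17 (SE 0.41, unadjusted p = 0.0189, edgeR adjusted p = 0.917). ABCG1, which loads cholesterol onto mature high-density lipoprotein, was at 34.1, 36.7 and 33.3 CPM with resting MSC-CM and at 24.7, 31.6 and 22.3 CPM with STING-MSC-CM. Its groups did not overlap either, with a log2 fold change of −0.40 (SE 0.19, unadjusted p = 0.0549). ABCA1, the pump that loads lipid-poor apolipoprotein, went the other way for 2 of 3 donors, at 193, 316 and 405 CPM against 373, 517 and 402 CPM (log2 fold change 0.50, SE 0.41, unadjusted p = 0.251). MYLIP was at 33.3, 21.6 and 21.7 CPM against 27.5, 17 and 19.1 CPM, and NR1H3, which encodes LXRα, at 147, 193 and 162 CPM against 159, 192 and 194 CPM, both with overlapping groups. NPC1, which exports cholesterol from lysosomes, was at 241, 254 and 233 CPM against 196, 232 and 202 CPM and did not overlap.

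Counted by role, 30 of the 39 had a log2 fold change above 0 with STING-MSC-CM, beside 48.5% of all genes, and 22 were higher for each of the 3 donors, beside 16.2% of all genes. Of the 18 synthesis genes 16 were above 0 and 13 were higher for each donor. Their median log2 fold change was 0.23, against −0.01 over all genes tested. All 8 mevalonate genes and all 6 fatty acid genes were above 0, the latter with a median of 0.22. The 5 efflux genes had a median of −0.27 with 2 above 0, and the 5 transport and storage genes had a median of −0.15. For 8 of the 39 the STING-MSC-CM libraries were all above the resting libraries, beside 4% of all genes, and for 3, NPC1, APOE and ABCG1, all below, beside 5.79%. When each of the 6 libraries was left out in turn, 15 to 17 of the 18 synthesis genes stayed above 0. The count of the 39 at an unadjusted p under 0.05 ran from 5 without the ORC resting library to 12 without the PC resting library. Over all genes it moved too, from 245 higher and 377 lower of 14966 to 739 higher and 518 lower of 14919. The efflux median rested on single libraries, at −0.02 without the AG1 resting library and −0.13 without the ORC STING-MSC-CM library. The fatty acid median was 0.12 without the ORC resting library and 0.34 without the ORC STING-MSC-CM library, with 5 of 6 genes above 0 in both. The macrophage marker sums overlapped between the groups, at 10060, 11284 and 12383 CPM with resting and 10541, 13236 and 12868 CPM with STING-MSC-CM, as did the lymphocyte marker sums, at 309, 320 and 279 CPM and 279, 260 and 290 CPM. The summed fibroblast markers, of which 2 of 11 were over 1 CPM in every macrophage library and none was at 0 throughout, did not overlap, at 87.7, 90.4 and 92.9 CPM with resting and 58.3, 77.3 and 50.8 CPM with STING-MSC-CM of AG1, ORC and PC. The cytokine library held 53.4 CPM and the library with no addition 67.8 CPM of them. The part of this shift in the lipid genes was not tested.

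With TLR-MSC-CM the macrophages gave smaller differences. None of the 39 reached an adjusted p under 0.05 in edgeR or DESeq2 or an unadjusted p under 0.05 in edgeR, beside 2.1% of all genes at the unadjusted threshold. With the donor block IDI1, FASN and FDFT1 were higher and NPC1 lower at an unadjusted p under 0.05, beside 5.58% of all genes, and without the PC resting library the unblocked count was 2. A log2 fold change above 0 was found for 26 of the 39, beside 51.4% of all genes. Of the synthesis genes 16 of 18 were above 0, at a median of 0.09, and all 5 efflux genes were below 0, at a median of −0.21. These counts leaned on the library of donor AG1 that stood apart, for without it 12 of 18 synthesis genes and 2 of 5 efflux genes were above 0 and the efflux median was −0.02. In that library SOAT1, which esterifies cholesterol for storage, was at 128 CPM against 247 and 269 CPM in the other TLR-MSC-CM libraries, and INSIG1 was at 136 CPM against 186 and 195 CPM. Both comparisons share the resting libraries. Directly between STING- and TLR-MSC-CM, 6 genes were higher at an unadjusted p under 0.05 (LIPG, LSS, ACAT2, INSIG1, SCAP and PMVK) and 1, APOE, was lower, beside 6.42% of all genes, and none passed adjustment in edgeR. The donor block called LIPG, LSS and ACACA after adjustment, beside 2.74% of all genes, with 14 higher and 2 lower unadjusted, beside 16.2%, and DESeq2 called LIPG, beside 0.272%. The unadjusted count of 7 became 3 without the PC STING-MSC-CM library and 10 without the PC TLR-MSC-CM library, with the shares of all genes in these fits not given here.

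In synoviocytes, the lining cells of the joint, the share of the 39 genes under the unadjusted threshold was near that of all genes. With TLR-MSC-CM 1 of the 39 was higher and 3 were lower at an unadjusted p under 0.05, beside 9.07% of all 14584 genes tested, and with STING-MSC-CM 2 were higher and 1 lower, beside 6.67%. None passed adjustment in edgeR, where no gene of the whole table did, nor in DESeq2. APOE, at low counts, was higher with both media. It was at 0.848, 0.431 and 0.739 CPM (12 to 26 counts) with resting MSC-CM of AG1, ORC and PC, at 1.05, 1.71 and 1.21 CPM with TLR-MSC-CM, and at 1.12, 1.44 and 1.42 CPM with STING-MSC-CM, with 27 to 54 counts in the TLR-MSC-CM and 35 to 49 in the STING-MSC-CM libraries. All activated libraries were above all resting ones, with log2 fold changes of 0.94 and 0.95 (both SE 0.33, unadjusted p = 0.0105 and 0.0104), though the cytokine library stood at 1.56 CPM and the library with no addition at 1.25 CPM. TM7SF2, a sterol reductase, was at 4.99, 5.17 and 4.37 CPM with resting and at 6.09, 7.8 and 6.77 CPM with STING-MSC-CM, which did not overlap (log2 fold change 0.49, SE 0.14, unadjusted p = 0.00291). EBP, a sterol isomerase, was at 44.1, 55.2 and 46.4 CPM with resting and at 42.5, 35.7 and 40.9 CPM with TLR-MSC-CM, and all TLR-MSC-CM libraries were below (log2 fold change −0.30, SE 0.09, unadjusted p = 0.0046). ELOVL6, which lengthens palmitate, and DHCR7, a last step of cholesterol synthesis, were the other genes lower with TLR-MSC-CM, at −0.37 and −0.17 on the log2 scale, and SCD, the desaturase that makes oleate, was lower with STING-MSC-CM, at −0.19. The ORC resting library carried much of the spread. HMGCS1 was at 139, 187 and 169 CPM with resting, 146, 142 and 156 CPM with TLR-MSC-CM and 155, 136 and 151 CPM with STING-MSC-CM, so the ORC resting library was the highest of the 9. Of the 18 synthesis genes 17 were below 0 with each activated medium, beside 49.9% of all genes with TLR-MSC-CM and 49.5% with STING-MSC-CM. Without the ORC resting library 16 and 13 were below 0, and the medians went from −0.11 to −0.04 with TLR-MSC-CM and from −0.10 to −0.02 with STING-MSC-CM. The unadjusted count with TLR-MSC-CM became 15 without the AG1 resting library, 1 without the ORC resting library and 1 without the ORC TLR-MSC-CM library. With STING-MSC-CM it became 14 without the AG1 resting, 8 without the PC resting and 5 without the AG1 STING-MSC-CM library. The shares of all genes in these fits are not given here, so these counts are not a result about the 39 genes alone. The summed cell cycle genes also differed, at 1509, 1801 and 1690 CPM with resting, 1547, 1120 and 1497 CPM with TLR-MSC-CM and 1494, 1348 and 1430 CPM with STING-MSC-CM, and their part in the result was not tested.

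In chondrocytes none of the 39 passed adjustment in edgeR or DESeq2 with TLR-MSC-CM, with STING-MSC-CM or between them. Between STING- and TLR-MSC-CM no gene of the whole table passed in either test. None of the 39 reached an unadjusted p under 0.05 in edgeR, beside 0.517%, 0.79% and 0.727% of all 14304 genes in the same order of comparisons. With the donor block PMVK alone was under that p with TLR-MSC-CM (log2 fold change 0.17, unadjusted p = 0.0429), beside 2.35%. Without the ORC TLR-MSC-CM library and without the ORC STING-MSC-CM library the counts against resting MSC-CM were 1 each. HMGCS1 was at 200, 172 and 215 CPM with resting MSC-CM of AG1, ORC and PC, at 207, 165 and 203 CPM with TLR-MSC-CM and at 176, 182 and 213 CPM with STING-MSC-CM. SREBF1, whose protein drives fatty acid genes, was at 62.6, 51.1 and 67.9 CPM, at 77.6, 48.5 and 61.7 CPM and at 69.1, 57.3 and 56.1 CPM in the same order. The spread between medium donors was wider than any difference between the media for both.

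**Figure D2:**
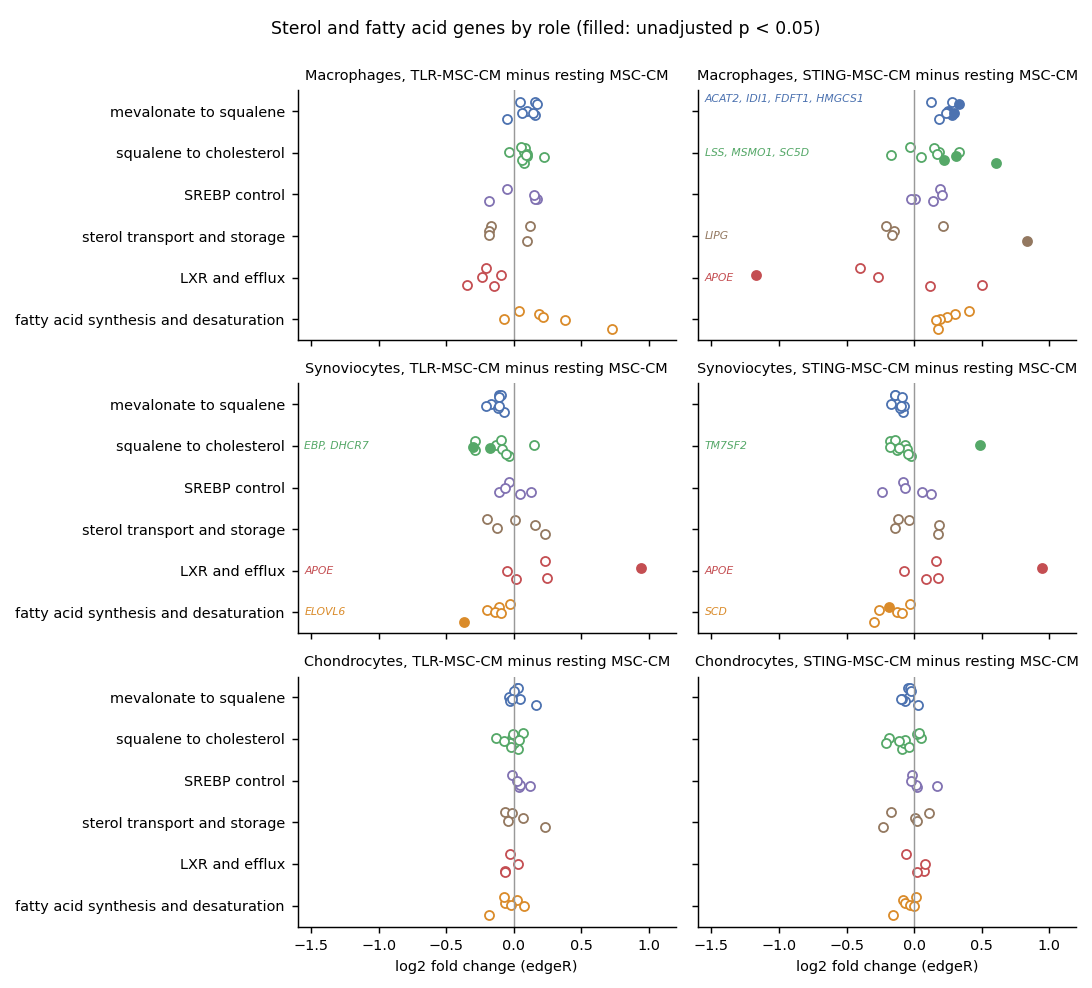
Log2 fold change of each member gene for the activated media (TLR- and STING-MSC-CM) over resting MSC-CM in macrophages, synoviocytes and chondrocytes, with genes grouped by role, and filled points, named at the left, at an unadjusted p under 0.05. APOE in chondrocytes is left out because its counts with the activated media were at or under 3. With STING-MSC-CM the synthesis genes of macrophages have a median of 0.23, and 7 of the 8 filled points above 0 belong to them, the other being LIPG.

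The difference between cell types was tested directly as an interaction over 16584 genes, with the cell types sharing the same conditioned media. None of the 39 passed adjustment, and in the unblocked edgeR fit no gene of the whole table did either. For STING-MSC-CM the change in macrophages exceeded that in synoviocytes at an unadjusted p under 0.05 for 6 genes, FDFT1, ACAT2, HMGCS1, MSMO1, FASN and PMVK, and was below it for APOE, beside 4.34% of all genes. FDFT1 differed by 0.41 on the log2 scale (SE 0.13, unadjusted p = 0.00528) and APOE by −2.13 (SE 0.59, unadjusted p = 0.00141), with APOE lower in macrophages and higher in synoviocytes. Against chondrocytes the change in macrophages was larger for FDFT1 (0.35), ACAT2 (0.39) and MSMO1 (0.38), beside 3.51% of all genes. With the donor block the counts were 16 higher and 3 lower against synoviocytes, beside 10.5%, and 13 higher and 1 lower against chondrocytes, beside 8.62%. The unblocked count of 7 against synoviocytes became 11 without the PC resting macrophage library and 2 without the ORC resting synoviocyte library. The count of 3 against chondrocytes became 1 without the ORC resting macrophage library, 8 without the ORC resting chondrocyte library, 6 without either the PC resting macrophage or the PC STING-MSC-CM chondrocyte library, and 5 without the ORC STING-MSC-CM macrophage library. For TLR-MSC-CM 1 gene, ELOVL6, was higher in each of the macrophage comparisons, beside 3.87% and 2.59% of all genes. In macrophages ELOVL6 had 6 to 19 reads with resting and 18 to 32 reads with TLR-MSC-CM. On leaving out 1 library the numbers of genes ran up to 5, without the AG1 resting synoviocyte library, and between 0 and 2. The shares of all genes in the interaction fits with a library left out are not given here, so those numbers describe spread only. With the donor block 7 were higher and 3 lower against synoviocytes, where 695 of all 16584 genes were higher and 694 lower. Against chondrocytes the block gave 1 higher and 0 lower, where 474 of all genes were higher and 395 lower.

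The libraries without conditioned medium show how these genes stood with and without the cytokines, and the ratios were larger in chondrocytes and synoviocytes than in macrophages. These are ratios of 1 library to 1 library with no replicate, and the 95% intervals cover counting error only. In the chondrocyte library with IL-1β and TNF-α, 37 of the 39 genes were higher than in the library with no addition and 20 were over 2-fold higher, beside 50.2% and 6.77% of all genes, with a median ratio of 2.04 against 1.00 over all genes. All 18 synthesis genes were higher and 11 were over 2-fold higher. In the synoviocyte pair 36 were higher and 5 over 2-fold higher, beside 49.3% and 5.08% of all genes, with a median of 1.34. In the macrophage pair 30 were higher and 0 were over 2-fold higher, beside 51% and 3.07% of all genes, and the median was 1.05.

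LIPG gave the widest contrast. It went from 5.08 CPM with no addition to 817 CPM with cytokines in the chondrocytes, a ratio of 161 (136 to 192), from 12.1 to 134 CPM in the synoviocytes, a ratio of 11.1 (9.95 to 12.3), and from 114 to 116 CPM in the macrophages, a ratio of 1.02 (0.968 to 1.07). The macrophages thus held near 115 CPM in both single libraries, above the joint cells with no addition and below the chondrocytes with cytokines. Among the desaturases, SCD went from 60.2 to 429 CPM in chondrocytes and from 154 to 532 CPM in synoviocytes, and FADS2, which opens the synthesis of long polyunsaturated fatty acids, from 193 to 1017 CPM and from 142 to 460 CPM. Their ratios were 7.12 and 3.45 for SCD and 5.26 and 3.25 for FADS2. FADS1, which acts later in the same chain, went from 133 to 415 CPM and from 156 to 322 CPM. In macrophages SCD was at 3.05 CPM with no addition and at 2.25 CPM with cytokines. The synthesis gene FDPS, which makes farnesyl diphosphate, had ratios of 3.20 in chondrocytes, 2.26 in synoviocytes and 0.953 in macrophages, and HMGCS1 ratios of 2.59, 1.87 and 1.18.

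The LXR group was mixed. MYLIP went from 3.23 to 26.6 CPM in chondrocytes, a ratio of 8.24 (6.62 to 10.4), and from 17 to 28 CPM in synoviocytes. ABCA1 went from 91 to 170 CPM and from 64.5 to 128 CPM, while ABCG1 went from 7.3 to 10.8 CPM and from 1.54 to 1.82 CPM. NR1H3 went from 20.8 to 26.2 CPM in chondrocytes and from 26.6 to 24.6 CPM in synoviocytes. Of the 5 control genes 4 were higher with cytokines in chondrocytes, SREBF1 going from 31.7 to 71.2 CPM, SREBF2 from 202 to 346 CPM, INSIG2 from 15.9 to 22.8 CPM and INSIG1, itself a target of SREBP, from 34.4 to 92.1 CPM. SCAP went the other way, from 212 to 159 CPM. STARD4, a cytosolic sterol carrier, went from 4.49 to 8.6 CPM there and from 6.2 to 7.78 CPM in synoviocytes.

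The libraries with conditioned medium can be set beside the same contrast, because by the published methods their cells also received cytokines. They do not replicate it, since they held MSC-CM too and the library with no addition stayed 1 per cell type. The library with no addition was the lowest of the 11 for 31 of 39 genes in synoviocytes, beside 19.6% of all genes, for 29 of 39 in chondrocytes, beside 19.1%, and for 6 of 39 in macrophages, beside 13.3%. Among the 18 synthesis genes it was lowest for 17, 16 and 1. The exceptions in both joint cells were PMVK, INSIG2, SCAP, NPC1, NPC2, ABCG1, NR1H3 and APOE, joined in chondrocytes by MVK and ACACA. The mean of the resting MSC-CM libraries stayed within 2-fold of the cytokine library for every gene except APOE in synoviocytes and LIPG in chondrocytes, both lower. Cell cycle genes moved with the cytokines in chondrocytes, with a median ratio of 0.621, and in synoviocytes the median was 1.09. Their part in the result was not tested.

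**Figure D3:**
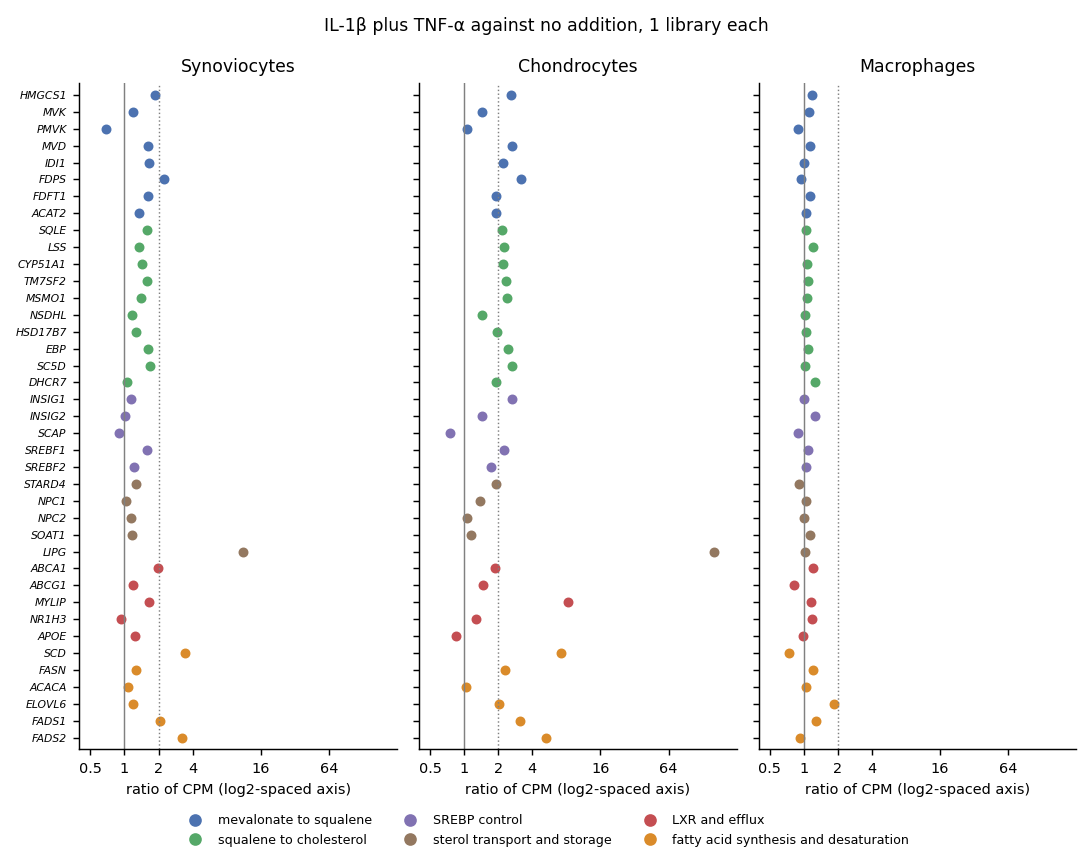
Ratio of CPM in the library with IL-1β and TNF-α only to CPM in the library with no addition for each member gene in synoviocytes, chondrocytes and macrophages, on an axis with log2 spacing, 1 library each, with a dotted line at 2. Of 39 genes, 20 lie above the line in chondrocytes, 5 in synoviocytes and 0 in macrophages, and LIPG is farthest right in chondrocytes at 161.

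Among the chondrocyte libraries many of these genes were lower with the media of 1 MSC donor, whatever the treatment of the MSCs. In the 3 libraries with media of donor ORC, 22 of the 39 genes were below all 6 libraries with media of AG1 and PC, beside 19% of all genes, and 3 (HSD17B7, DHCR7 and SCAP) were above all of them, beside 18%. LIPG was at 71.8, 68.6 and 160 CPM with resting, TLR- and STING-MSC-CM of ORC and between 375 and 774 CPM in the other 6. LSS was at 75.5, 68.5 and 81.7 CPM against 126 to 153 CPM, MYLIP at 15.1, 12.4 and 15.4 CPM against 25.2 to 30.6 CPM, and INSIG1 at 51.7, 49.5 and 57.1 CPM against 79 to 93.2 CPM. For these 4 genes the ORC libraries lay between the library with no addition and the cytokine library. SCD followed the same order at a smaller ratio, at 308, 317 and 356 CPM against 383 to 513 CPM, whereas FASN, fatty acid synthase, did not, at 389, 321 and 456 CPM against 347 to 450 CPM.

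The ORC libraries also differed in other genes. Their cell cycle sums were 1532, 1469 and 1431 CPM against 945 to 1143 CPM, and their cartilage marker sums 597, 651 and 499 CPM against 162 to 249 CPM, beside 740 CPM with no addition and 166 CPM with cytokines only. The part of these shifts in the lipid genes was not tested, and 1 horse gave all the ORC media. Across the 9 conditioned-medium libraries the donor of the medium accounted for a median of 76.3% of the variance of the 39 genes in chondrocytes against 59.3% over all genes. In macrophages it accounted for 44.5% against 39.2%, with the treatment of the MSCs at 34.5% against 21.2%, and in synoviocytes the donor accounted for 14.1% against 18.6%. In synoviocytes the media of 1 donor lay below all others for 3 of the 39 genes, LIPG with AG1, MYLIP with ORC and NR1H3 with PC, beside 0.72%, 1.41% and 1.45% of all genes. In macrophages ORC media lay below the others for 4 genes, NSDHL, SREBF2, SCD and FADS2, beside 2.4%.

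**Figure D4:**
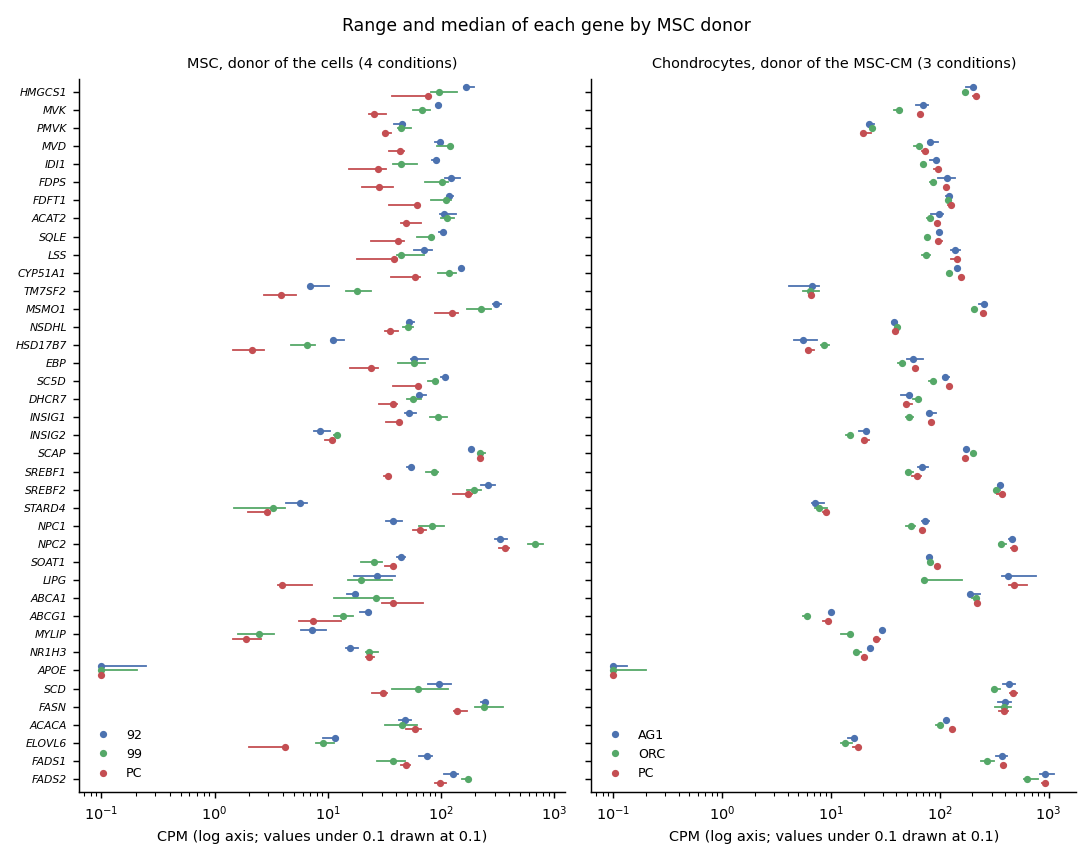
Range (line) and median (point) of CPM on a log10 axis by donor, for MSCs over 4 treatments per horse and for chondrocytes over 3 conditioned media per medium donor, with values under 0.1 CPM drawn at 0.1. In MSCs HMGCS1 spans 162 to 195 CPM in donor 92 and 37.4 to 80.6 CPM in donor PC, and in chondrocytes LIPG spans 68.6 to 160 CPM with ORC media and 375 to 774 CPM with the others.

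Between the cell types most of the 39 genes passed the test, as most genes of the table did. With resting MSC-CM, 3 libraries per cell type and edgeR over 15599 genes, 11 of the 39 were higher and 20 lower in macrophages than in synoviocytes at an adjusted p under 0.05, in a comparison where 71.5% of all genes passed, and 9 were higher and 24 lower than in chondrocytes, where 71.4% passed. The share called is therefore near the background, and the direction by role is what these counts describe. Each cell type came from 1 horse and the macrophages had their own culture, so cell type, horse and culture cannot be told apart.

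The genes of fatty acid desaturation and elongation were lower in macrophages. SCD was at 3.86 ± 0.628 CPM (SD, n = 3) against 550 ± 53.9 CPM in synoviocytes, a log2 fold change of −7.15 (SE 0.23, edgeR adjusted p = 6.09e-10). FADS2 differed by −6.24, ELOVL6 by −5.57 and FADS1 by −4.03. Against chondrocytes the same 4 genes differed by −6.74, −7.09, −5.43 and −4.13 for SCD, FADS2, ELOVL6 and FADS1. FASN, which makes the palmitate these enzymes work on, was at 230, 184 and 263 CPM in macrophages and at 238, 360 and 247 CPM in synoviocytes. It did not share the gap to synoviocytes but was lower than in chondrocytes (log2 fold change −0.83, edgeR adjusted p = 0.00122). ACACA, which makes the malonyl substrate of FASN, was lower than in synoviocytes by 1.70 on the log2 scale.

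Of the 18 synthesis genes 11 were lower and 2 higher in macrophages than in synoviocytes, and 13 lower and 1 higher than in chondrocytes. The log2 fold changes of its 18 genes had medians of −0.57 against synoviocytes and −0.82 against chondrocytes, beside 0.04 over all genes in both. HMGCS1 was at 41.7, 41.8 and 48 CPM in macrophages against 139, 187 and 169 CPM in synoviocytes (log2 fold change −1.92, SE 0.13, edgeR adjusted p = 2.07e-07). MVK, mevalonate kinase, differed by −1.61, LSS by −1.56 and SQLE by −1.02. DHCR7 and SC5D were higher, by 0.55 and 0.32, and 5 genes did not pass, among them CYP51A1, a sterol demethylase, at 0.04 (edgeR adjusted p = 0.814). SCAP and SREBF1 were lower by 1.42 and 1.26, SREBF2 by 0.48, and INSIG1 was the 1 control gene higher, at 180, 220 and 186 CPM against 48.6, 53.9 and 48.9 CPM (log2 fold change 1.95, SE 0.17, edgeR adjusted p = 1.29e-06).

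Efflux, lysosomal export and storage genes were higher in macrophages. NR1H3 was at 147, 193 and 162 CPM against 23.7, 22.4 and 20.4 CPM in synoviocytes (log2 fold change 2.91, SE 0.15, edgeR adjusted p = 1.94e-08). ABCG1 was at 34.1, 36.7 and 33.3 CPM against 1.04, 2.01 and 2.75 CPM (log2 fold change 4.16, SE 0.30, edgeR adjusted p = 5e-07). APOE differed by 4.11, NPC2, which hands lysosomal cholesterol to NPC1, by 2.54, NPC1 by 2.01, SOAT1 by 1.54, ABCA1 by 1.48 and STARD4 by 0.56. Of the efflux group MYLIP alone did not pass. Against chondrocytes APOE (6.58), NR1H3 (3.03), NPC2 (2.43), ABCG1 (2.01), NPC1 (1.92), SOAT1 (1.52) and STARD4 (0.57) passed again. The size for APOE rests on 1 to 5 counts per chondrocyte library. ABCA1 did not pass, at 0.54 (edgeR adjusted p = 0.0571). LIPG was lower than in chondrocytes by 2.30 (SE 0.63, edgeR adjusted p = 0.00969), although its macrophage libraries overlapped the ORC chondrocyte library at 71.8 CPM.

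**Figure D5:**
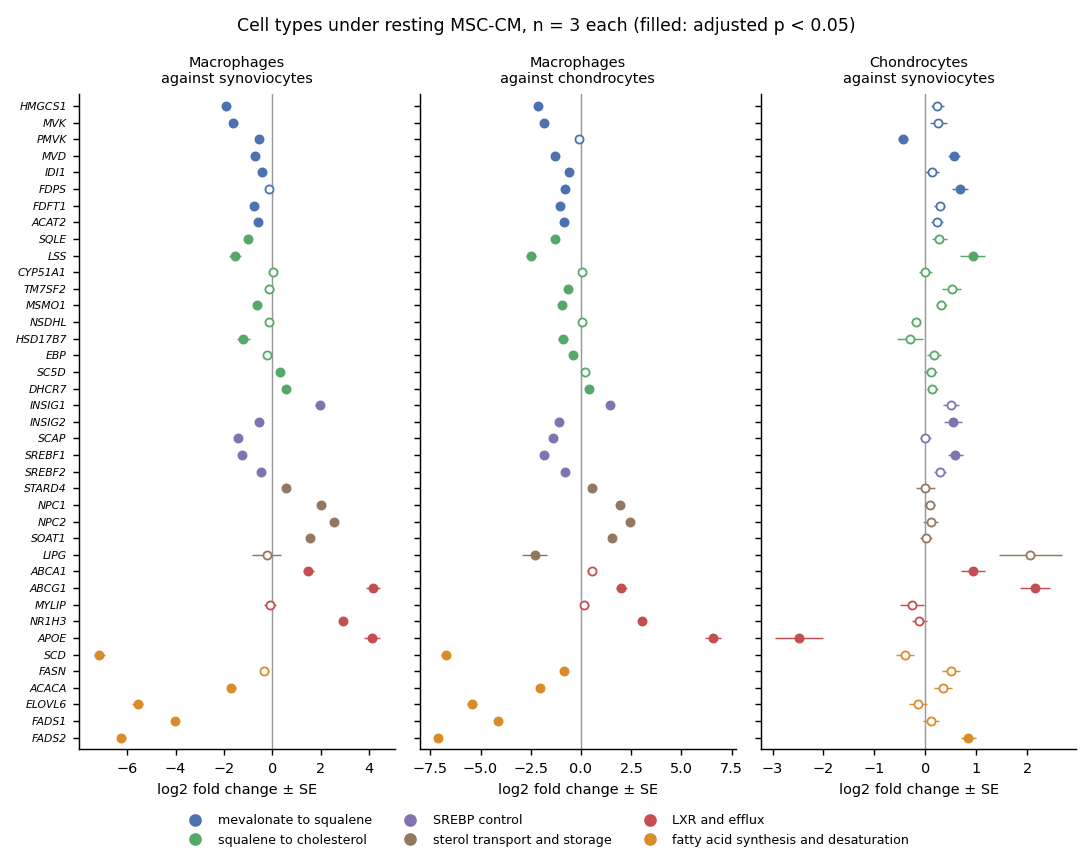
Log2 fold change ± SE of each member gene between macrophages, synoviocytes and chondrocytes with resting MSC-CM (3 libraries each), with filled points at an edgeR adjusted p under 0.05. The desaturases SCD and FADS2 lie at −7.15 and −6.24 in macrophages against synoviocytes, and ABCG1 and NR1H3 at 4.16 and 2.91.

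Chondrocytes and synoviocytes were closer to each other, with 8 of the 39 higher and 2 lower in chondrocytes at an adjusted p under 0.05, beside 18.1% of all genes. Higher were ABCG1 (2.15), ABCA1 (0.94), LSS (0.93), FADS2 (0.85), FDPS (0.68), SREBF1 (0.59), MVD, a mevalonate pathway decarboxylase (0.56), and INSIG2 (0.55). PMVK, a mevalonate pathway kinase, was lower at −0.44, and APOE was lower at 1 to 5 counts per chondrocyte library, where the size of the fold depends on the floor. The count of 10 became 4 without the PC chondrocyte library, 5 without the PC synoviocyte library, 6 without either AG1 library in turn and 14 without the ORC chondrocyte library. The shares of all genes in these fits are not given here, so these counts describe spread only. FADS2 was at 923, 632 and 956 CPM against 442, 487 and 457 CPM, and LSS at 138, 75.5 and 143 CPM against 58.2, 72.1 and 55.9 CPM, where the ORC library of chondrocytes was close to the highest synoviocyte library.

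In the MSCs themselves none of the 39 passed adjustment with TLR3 agonist, STING agonist or CpG in edgeR or DESeq2. Of all 14872 genes edgeR called 0 after adjustment with poly I:C and 0 with cGAMP. DESeq2 called 52 higher and 0 lower with poly I:C, and 94 higher and 1 lower with cGAMP. None of the 39 reached an unadjusted p under 0.05 in edgeR with TLR3 agonist, STING agonist or CpG, beside 1.13%, 2.06% and 0.278% of all genes. All 18 of a list of interferon genes were under that p with both poly I:C and cGAMP. The 3 horses differed so widely that the donor block mattered. With it, 4 members were higher and 1 lower at an unadjusted p under 0.05 with poly I:C, beside 3.11% of all genes, 4 higher and 1 lower with cGAMP, beside 9.58%, and 10 higher and 0 lower with CpG, beside 1.42%, and none passed adjustment. Without the untreated library of 92 the unblocked cGAMP count was 1. HMGCS1 was at 164, 82.5 and 37.4 CPM untreated in horses 92, 99 and PC, at 173, 96.4 and 80.6 CPM with poly I:C, at 195, 97.6 and 75.4 CPM with cGAMP and at 162, 139 and 78.5 CPM with CpG. It was higher than untreated in all 3 horses with poly I:C and cGAMP, and in 99 and PC with CpG.

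SREBF2, whose protein drives cholesterol synthesis, was at 228, 183 and 128 CPM untreated and at 302, 228 and 189 CPM with CpG, higher in all 3 horses (donor block log2 fold change 0.43, SE 0.11, unadjusted p = 0.00272, edgeR adjusted p = 1). With poly I:C it was at 268, 211 and 179 CPM. TM7SF2 was at 6.87, 14.4 and 2.76 CPM untreated and at 10.2, 21.3 and 5.23 CPM with CpG, again higher in each horse. ABCA1 was at 14.9, 35.5 and 69.2 CPM untreated and at 18.5, 11.3 and 38.8 CPM with poly I:C, lower in 99 and PC and higher in 92. The other genes called in the block were SC5D, HMGCS1 and CYP51A1 with poly I:C, SC5D, FDFT1, HMGCS1 and SQLE higher and FADS1 lower with cGAMP, and HMGCS1, MVK, IDI1, SQLE, LSS, CYP51A1, SC5D and FASN with CpG.

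All 18 synthesis genes had a log2 fold change above 0 with poly I:C, 16 with cGAMP and 16 with CpG, beside 55.5%, 51.8% and 46% of all genes. The medians were 0.21, 0.17 and 0.23 against 0.02, 0.01 and −0.02 over all genes. With the scaling of DESeq2 the cGAMP count was 12. The horses were not alike, since with poly I:C 4 of 18 were higher in 92, 16 in 99 and 18 in PC, with cGAMP 5, 15 and 18, and with CpG 6, 18 and 18. The 3 comparisons share the untreated libraries, and the untreated PC library held the lowest level of HMGCS1 and SQLE of the 12. The macrophage marker sum also moved with the agonists, at 14.1, 17.2 and 12.6 CPM untreated, 10.6, 126 and 140 CPM with poly I:C and 52.1, 328 and 191 CPM with cGAMP, but at 9.64, 22.4 and 14.5 CPM with CpG. Its part in these values was not tested.

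Donor PC stood below the others. Over the 4 treatments, 23 of the 39 genes were lower in every PC library than in any library of 92 or 99, beside 7.29% of all genes, and none was above both. Against 92 alone every PC library was lower for 30 of the 39 and for all 18 synthesis genes, beside 21.4% of all genes. SQLE was at 24.2 to 47.6 CPM in PC, 61.7 to 87.7 CPM in 99 and 97.7 to 106 CPM in 92. LIPG was at 3.66 to 7.25 CPM in PC against 15.2 to 39.5 CPM in the other horses, and FASN at 130 to 169 CPM against 200 to 356 CPM. ABCA1 was at 30.5 to 69.2 CPM in PC and 14.9 to 18.5 CPM in 92, the opposite order, and ABCG1 was at 5.62 to 13 CPM in PC and 19.4 to 24.2 CPM in 92. The cell cycle genes were lower in PC too, 18 of 18 below both other horses, with sums of 173 to 251 CPM in PC against 429 to 1840 CPM in the others, and their part was not tested. The horse accounted for a median of 87.2% of the variance of the 39 genes in MSCs against 70.0% over all genes.

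In MSCs APOE was at 0 to 9 counts in every library, too few to read a difference. MYLIP was at 1.46 to 9.68 CPM, on 51 to 393 counts, and showed no difference beyond the spread between horses. SREBF1 was at 54.9, 82.6 and 35.1 CPM untreated in 92, 99 and PC and kept that order of the horses with each agonist. NR1H3 was lowest in 92 throughout, at 14.6 to 18.4 CPM. SCD went apart by horse, at 76.6, 84.1 and 24.8 CPM untreated and at 124, 42.4 and 31.2 CPM with cGAMP, higher in 92 and PC and lower in 99. INSIG1 was at 48.2, 108 and 32.9 CPM untreated and at 54.4, 80.8 and 42.8 CPM with cGAMP, and STARD4 at 4.28, 4.09 and 1.96 CPM and at 4.97, 2.48 and 2.92 CPM, both lower in 99 and higher in the others.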

How the data were processed

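The authors deposited whole-number read counts per gene from polyA RNA. Per the labels and the published methods, reads were trimmed with cutadapt 1.12, aligned with STAR to EquCab3.0 and counted with HTSeq 0.11.0, and genes were restricted to protein-coding ones. Whether counting used strand was not given in the sources used here. No length was used, and no sequence is shown.

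Counts were tested with edgeR 4.0.16 (R 4.3.3): TMM scaling, quasi-likelihood F tests with robust dispersion, genes with at least 10 counts in total, and Benjamini-Hochberg adjustment over all genes tested. Each cell type was fitted alone, and cell types and interactions in joint fits. Standard errors are |log2 fold change| divided by the root of F. Alternatives were the MSC donor as a block, DESeq2 1.42.0, other scalings, no filter, another prior count or pseudocount, and leaving out each library. Deviations of libraries with the same donor correlated at 0.659 to 0.900 in MSCs, 0.573 to 0.891 in chondrocytes, 0.341 to 0.579 in macrophages and −0.376 to 0.359 in synoviocytes. Those of different donors correlated at −0.747 to 0.150, −0.773 to 0.612, −0.595 to 0.379 and −0.321 to 0.365 in the same order. The ranges overlapped in all but the MSCs. The medians were 0.676 against −0.654 in chondrocytes, 0.443 against −0.233 in macrophages and 0.066 against −0.024 in synoviocytes. By the medians, donors paired the samples in the first 3 cell types only. Scripts were tested on simulated data. The 39 genes and all lists were chosen with earlier results of these data known. Genes are named if they have an adjusted p under 0.05, otherwise up to 5 per direction with an unadjusted p under 0.05, together with 14 given in every cell type. Others are named as part of a role or of a count. Between macrophages and the other joint cells, where most of the 39 passed, only some of the passing genes are named, and the rest stand in the counts.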

Additional observations from a re-analysis of the deposited data

How the results depend on the processing

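Many counts of the 39 genes changed by over 1.5 times. Of the counts at an unadjusted p under 0.05, 41 moved so and 127 did not when a library was left out, and 11 moved and 84 did not under other alternatives. Of the adjusted counts these were 4 against 164 and 4 against 91. Moves of counts given in the report stand beside them. With the MSC donor as a replicate block, unadjusted counts in MSCs went from 0 to 5, 5 and 10. Those of the interactions of STING-MSC-CM went from 7 to 19 and 3 to 14. For TLR-MSC-CM in macrophages against synoviocytes, 1 higher became 7 higher and 3 lower. The adjusted count in macrophages was 2 for STING- against resting MSC-CM and 3 for STING- against TLR-MSC-CM, where the unblocked fit gave 0. The unadjusted counts were 20 and 16 where it gave 9 and 7. DESeq2 gave 1 adjusted call, LIPG, in both. Leaving out 1 library gave unadjusted counts of 5 to 12 and 3 to 10 for these comparisons and adjusted counts of 4 to 14 for chondrocytes against synoviocytes, where all libraries gave 10. For STING- against resting MSC-CM in macrophages the unadjusted count over all genes moved too. In synoviocytes the donors did not pair the libraries, and the block left the adjusted counts at 0. Of the log2 fold changes of named genes, 693 kept direction and side of the threshold when a library was left out and 39 lost significance, and under the other alternatives 597 kept both, 6 gained and 3 lost significance. None reversed. Precision is limited by 3 media per group on the cells of 1 horse in the joint cells, by 3 horses in the MSCs, by single libraries without medium, and by counts of 0 to 54 for APOE outside the macrophages.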

Other observations

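Other lipid genes also differed between the cell types. Fatty acid uptake and oxidation genes were higher in macrophages than in synoviocytes for 13 of the 17 tested and lower for 3 (edgeR adjusted p under 0.05, beside 71.5% of all genes called). FABP5, a fatty acid carrier, differed by 7.36 on the log2 scale, and PPARG and PPARD, nuclear receptors for fatty acids, by 5.00 and 1.85. PPARA, a further receptor of that family, and PDK4 and ANGPTL4, known PPAR targets, were lower, by 1.49, 1.87 and 1.38 on the log2 scale. Of the other SREBP pathway genes 4 of 16 were higher in macrophages and 7 lower, with ACSL3, which activates long fatty acids, at −5.36 and GPAM, which starts glycerolipid synthesis, at −3.84. Of 15 further LXR, efflux, esterification and oxysterol genes 6 were higher, among them PLIN2, the coat of lipid droplets, at 1.68, and 6 were lower, among them PLTP, the phospholipid transfer protein and a textbook LXR target, at −5.61 and CYP27A1, which makes an oxysterol, at −5.10.

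In the single libraries, GPAM and ACSL3 were higher with cytokines than with no addition in the joint cells. GPAM went from 34.3 to 140 CPM in chondrocytes and from 69 to 238 CPM in synoviocytes, and was at 15.3 and 14.5 CPM in macrophages. CH25H, the enzyme that makes 25-hydroxycholesterol, a sterol that both holds SREBP back and activates LXR, went from 1.26 to 20.1 CPM in chondrocytes and from 5.81 to 11.8 CPM in synoviocytes, and from 9.03 to 4.99 CPM in macrophages. In chondrocytes the resting MSC-CM libraries held 6.09 to 18.8 CPM of CH25H, all below the cytokine library. Chondrocytes had less PPARG than synoviocytes, by 6.26 on the log2 scale (edgeR adjusted p = 1.23e-05), and more SCARB1, a lipoprotein receptor, by 1.39.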
